A study of Mus musculus with 96 samples.

Results

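Proteasome subunit genes were taken as every protein-coding row of the count table whose gene symbol starts with Psma, Psmb, Psmc, Psmd, Psme, Psmf or Psmg. This gave 50 genes of 36205 gene rows, 21270 of them protein-coding. The rule used names alone and no measured value, so it also took in Psmc3ip, a meiotic recombination cofactor named for binding Psmc3, and Psme2b, a near copy of Psme2 on another chromosome. RNA was measured in single wild-type E14 mouse embryonic stem cells (a line derived from the inner cell mass of the blastocyst, labelled as C57BL/6 background) kept in medium with serum and LIF, the cytokine that holds such cells undifferentiated. Each library is 1 cell taken through G&T-seq, which separates the messenger RNA of a cell from its DNA. Counts of 61 of the 76 serum/LIF wells were used, and the other serum wells, 16 wells of cells in 2i medium and 4 empty wells were not analysed here. The labels name no separate cultures, so the 61 cells stand for 1 sample: spreads are between cells, and no p-value is given.

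The proteasome is the protease that degrades ubiquitin-tagged proteins. Its barrel, the 20S particle, stacks rings of alpha subunits (Psma genes), which gate entry, on rings of beta subunits (Psmb genes), of which Psmb5, Psmb6 and Psmb7 carry the catalytic sites. A 19S cap of ATPases (Psmc genes) and non-ATPase subunits (Psmd genes) binds, unfolds and feeds in substrates, and under interferon the catalytic subunits can be exchanged for Psmb8, Psmb9 and Psmb10, which form the immunoproteasome. Below, the core means the 31 genes of the standard 20S and 19S particles.

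Letters at the promoters of the core genes are shown first, because these genes are often discussed as 1 co-regulated set. RefSeq promoters (GRCm38.p6), each from 250 bases before to 50 after a start site, were matched for 42 of the 50 genes, which have 45 promoters. The letters CCGGAAG, the core of an ETS factor motif, were found on either strand in 40.7% of 27 core promoters and in 8.86% of all 32851 promoters. They were in 8.33% of 12 promoters, which belong to 11 of the 20S genes, and in 66.7% of 15 promoters, which belong to 14 of the 19S genes. The core genes Psmb1, Psmb2, Psmb7, Psmc3, Psmd3 and Psmd7 had no promoter matched and were not searched. One match for each of the 10 core genes that hold the letters is printed 5′ to 3′ on the strand that reads CCGGAAG, with those letters in capitals.
Psma6, chr12:55398812-55398840, plus strand: ccgccggtgctCCGGAAGcagtagccata
Psmc1, chr12:100110163-100110191, minus strand: aatcgccaccgCCGGAAGtgcatccacca
Psmc2, chr5:21785180-21785208, minus strand: cgagccccatcCCGGAAGtgctcactggt
Psmc6, chr14:45329713-45329741, plus strand: aggcgggccagCCGGAAGgggcggagcca
Psmd2, chr16:20651615-20651643, minus strand: tgtcctccagaCCGGAAGcgccctgcgga
Psmd4, chr3:95042722-95042750, minus strand: ttacagctgttCCGGAAGctgctgcgaag
Psmd6, chr14:14120973-14121001, minus strand: cagagacgcgaCCGGAAGtcagactggcg
Psmd11, chr11:80428593-80428621, minus strand: gaaacacacacCCGGAAGacccgccctcg
Psmd12, chr11:107479500-107479528, minus strand: cgtcactcgcaCCGGAAGtcgcccgctca
Psmd13, chr7:140882377-140882405, plus strand: cgcccgcggtgCCGGAAGtgagcgagcac

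The other 5 motifs searched lay nearer to the share of all promoters. TGACNNNGC, the core of the antioxidant response element that Nfe2l1 and Nfe2l2 read, was in 14.8% of core promoters and 12.4% of all. CCAAT was in 37% and 37.4%, and the GC box GGGCGG in 55.6% and 35.7%. GAAANNGAA, the motif of interferon regulatory factors, was in 14.8% and 8.56%, and TTCNNNGAA, the STAT motif, in 3.7% and 8.3%. All 6 motifs were chosen after the counts had been seen, both strands were searched, and matches may overlap each other. All promoters include those of non-coding genes and of genes not expressed here, and a match is a description of letters only.

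The 250 bases before the start are printed for the catalytic subunits Psmb5 and Psmb6, whose promoters hold TGACNNNGC (in capitals), and for Psme2, which varied with the interferon-linked genes below. Psmb7, the remaining constitutive catalytic subunit, had no promoter matched and was not searched. In Psmb5 (chr14:54617996-54618245, minus strand) the letters begin 47 bases before the start, and in Psmb6 (chr11:70525107-70525356, plus strand) 9 bases before it. Psme2 (chr14:55591102-55591351, minus strand, the more upstream of 2 starts) holds neither the STAT letters nor those of interferon regulatory factors.
Psmb5: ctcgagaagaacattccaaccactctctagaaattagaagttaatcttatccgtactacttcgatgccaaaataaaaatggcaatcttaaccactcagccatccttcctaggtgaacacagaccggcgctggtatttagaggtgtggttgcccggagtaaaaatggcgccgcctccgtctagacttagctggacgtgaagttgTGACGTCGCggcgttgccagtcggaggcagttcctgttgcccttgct
Psmb6: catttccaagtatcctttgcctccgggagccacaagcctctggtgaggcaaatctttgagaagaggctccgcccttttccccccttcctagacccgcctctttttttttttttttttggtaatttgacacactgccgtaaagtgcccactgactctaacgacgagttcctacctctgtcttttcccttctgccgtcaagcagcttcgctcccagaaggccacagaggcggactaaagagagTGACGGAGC
Psme2: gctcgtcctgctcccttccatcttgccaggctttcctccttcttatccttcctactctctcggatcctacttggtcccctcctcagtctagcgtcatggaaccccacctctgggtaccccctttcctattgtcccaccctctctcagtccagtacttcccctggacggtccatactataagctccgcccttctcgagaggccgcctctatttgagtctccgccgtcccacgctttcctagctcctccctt

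Of the 5 interferon-inducible genes Psmb8, Psmb9, Psmb10, Psme1 and Psme2, only Psmb8 held the STAT letters and only Psme1 those of interferon regulatory factors within these windows. The Psmb8 match starts 97 bases before the start site. Both are printed with the motif in capitals.
Psmb8, chr17:34198088-34198116, plus strand: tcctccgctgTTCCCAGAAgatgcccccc
Psme1, chr14:55578494-55578522, minus strand: agcgggaaggGAAAGCGAAagcacagctc

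Pou5f1, a defining pluripotency factor of embryonic stem cells, had counts in all 61 cells, while the naive-state factor Esrrb was detected in 18. Total counts per cell ran from 2417702 to 6787261 (median 4244480), genes detected from 5317 to 10032 (median 8404) and the mitochondrial share from 0.0543% to 4.45% (median 1.97%). Of 6 immune and 6 fibroblast markers, none reached 10 counts in 10 or more cells. Markers of the early lineages were present in some cells: Cdx2, Eomes and Gata3 of 4 trophectoderm markers reached that level, and Dab2 of 5 primitive endoderm markers. Cdx2 was found in 18 cells, Eomes in 25, Gata3 in 20 and Dab2 in 20, while Elf5 was at 0 in all cells. The summed trophectoderm level was 0 in 24 cells and at most 564 CPM (counts scaled to 1 common library size), and the summed primitive endoderm level was 0 in 37 cells and at most 213 CPM. Their part in the results below was not tested. The immune markers Ptprc and H2-Aa were at 0 in all cells, and the summed level of the 6 immune markers was 0 in 41 cells and at most 199.7 CPM.

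Proteasome transcripts were abundant and present in nearly every cell. The 50 genes took 1.55% to 2.96% of all counts of a cell (median 2.22%). Levels are given as CPM after TMM scaling, which corrects for differences in RNA composition between cells. Summed over the 50 genes, they ran from 16172 CPM in cell G03 to 29140 CPM in cell H01 (median 21911), a 1.80-fold range. The core sum was highest in cells D05 (25661 CPM), D02 (25609) and B01 (25368) and lowest in B03 (14956), G03 (15087) and C02 (15148). No cell lacked the core as a whole.

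At least 1 count was found in all 61 cells for 29 of the 50 genes, against 5.59% of all protein-coding rows. Most of that contrast goes with level: among genes at least as abundant as the lowest core gene, 866 of 1516 were found in all cells. The 29 proteasome genes were 28 of the 31 core genes and Psme4. The 3 exceptions were lid subunits, each missing from 1 cell: Psmd14, the deubiquitinase that strips ubiquitin from substrates, in H10, Psmd3 in B10 and Psmd8 in E03. Psmd14 had a median of 4574 counts and no count in H10, a cell of 3899239 counts. A count of 0 allows up to 3 counts, which is 1.24 CPM in the shallowest cell and 0.442 CPM in the deepest, for counting error only. A filter of 10 or more counts in 10 or more cells was applied for variability and co-variation, and 48 of the 50 genes and 10868 genes in all passed it.

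Psma8, the alpha subunit of the testis proteasome, was one of the 2 genes below that filter, with counts in 8 cells, up to 167.4 CPM in F01. Psmb11, the catalytic subunit of thymic cortical epithelium, was the other, with 1 count in 1 cell (D06). Both are known from other tissues.

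**Figure D1:**
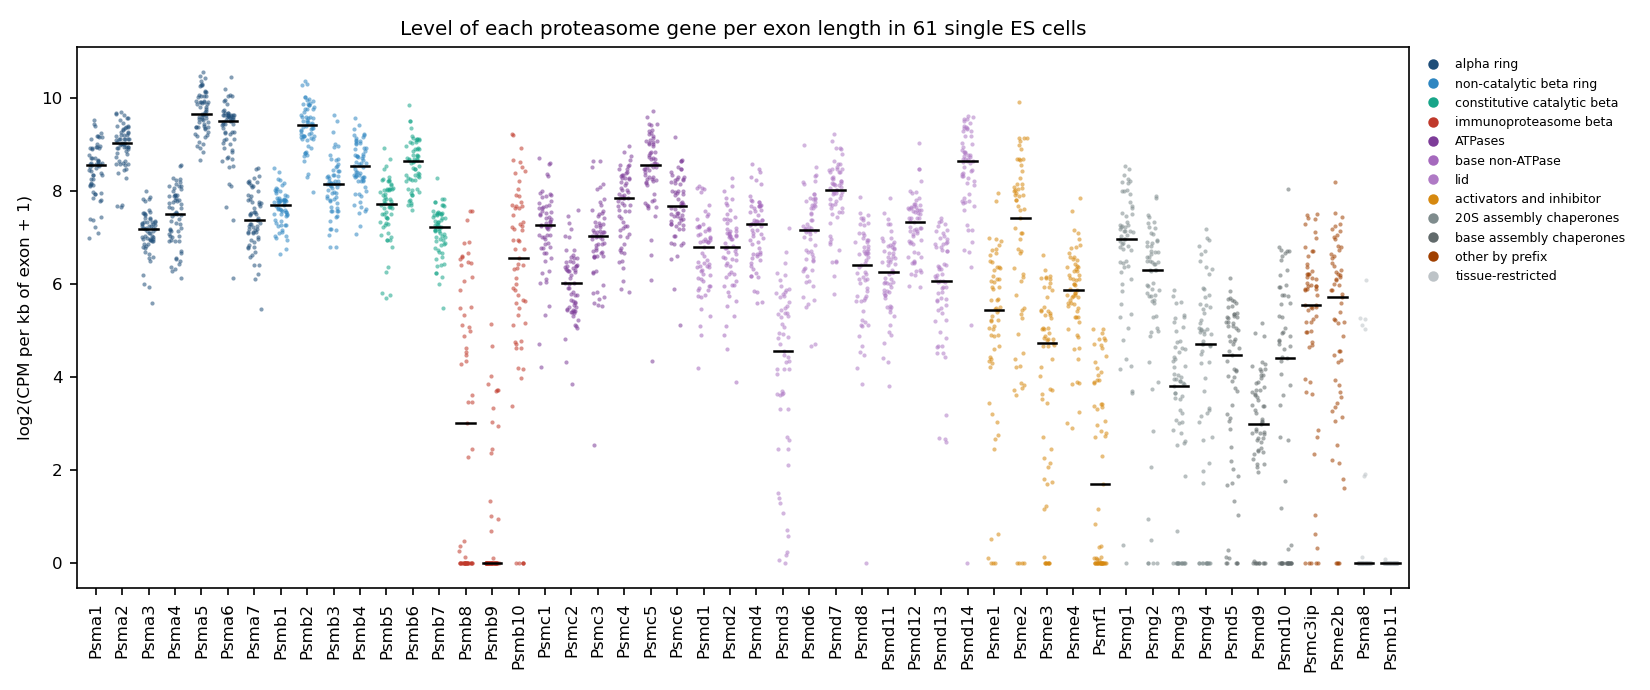
Levels of the 50 proteasome genes in 61 cells, as log2(CPM per kb of exon + 1), with 1 point per cell, a black line at the median and colours by role. The 20S rings form narrow bands with medians from 145 to 813 CPM per kb, and Psmb8, Psmb9 and Psmf1 reach 0 in many cells.

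Alpha ring genes and the non-catalytic beta genes of the next paragraph were the highest groups, and their order turned with the length used. The group median was 379 for the alpha ring and 329 for non-catalytic beta genes by all exon bases, but 666 and 735 CPM per kb by the median length of protein-coding transcripts. Compared per length (CPM per kb of all annotated exon bases), Psma5 was highest of all 50 genes at a median of 813, and Psma3 lowest of the ring at 145. Psma5 ran from 535 CPM in its lowest cell through 1074 to 2013 CPM in its highest, D05. Psma2 ran from 743 through 1938 to 3080 CPM, and Psma6 from 84.9 through 901 to 1732 CPM. Psma5 and Psma2 had no cell far below the others, whereas the lowest cell of Psma6 lay far under its median. By transcript length Psma1 led with 1035 CPM per kb, against 379 by all exon bases.

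Among the non-catalytic beta genes, Psmb2 was highest at 689 CPM per kb and Psmb1 lowest at 207. Psmb1 had the narrowest spread of all 50 genes, from 459 through 950 to 1670 CPM, with a coefficient of variation of 26.6% over cells. The constitutive catalytic subunits differed in level: Psmb6, the caspase-like subunit, had a median of 402 CPM per kb, Psmb5, the chymotrypsin-like subunit, 210, and Psmb7, the trypsin-like subunit, 150. By transcript length Psmb6 was again highest at 942, but Psmb7 stood at 441 and Psmb5 at 248, so the order of these 2 was not settled. Psmb5 ran from 46.1 through 189 to 438 CPM, Psmb6 from 361 through 752 to 1737 CPM, and Psmb7 from 150 through 512 to 1066 CPM. All 3 were detected in every cell, and their ranges over cells overlapped per length.

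Cap genes were lower than ring genes by group median under both lengths, and wider. Psmc5 was the highest ATPase at 377 CPM per kb and Psmc2 the lowest at 63.8. Of the non-ATPase base subunits, Psmd4, a ubiquitin receptor, stood at 155, and the scaffolds Psmd2 and Psmd1 at 110 each. Lid genes ran from Psmd14 at 401 to Psmd3 at 22.6 CPM per kb. Psmd3, a structural lid subunit, ran from 0 through 112 to 733 CPM, so that cells differed more in it than in any other core gene.

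Genes that help or modify the particle were lower than cap genes by group median under both lengths. Within these groups Psme2, described below, reached 172 CPM per kb, above Psmd4 at 155. Among the 20S assembly chaperones, Psmg1 was highest at 125 CPM per kb. Psmg3 was lowest at 13.1 by all exon bases, and Psmg4 was lowest at 27.4 by transcript length and, with 14.1, in CPM. The base chaperones Psmd5, Psmd10 and Psmd9 stood at 21.4, 20.3 and 6.98. Psme4, which encodes the PA200 activator, was found in every cell (54.6 through 482 to 1935 CPM), while Psme3, the nuclear PA28 gamma subunit, was found in 53 cells (median 75.7 CPM). Psmf1, the inhibitor PI31, was found in 40 cells with a median of 14.5 CPM, and was the lowest of these genes per length (2.26 CPM per kb). Psmc3ip was found in 56 cells with a median of 83.9 CPM.

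Cell-to-cell variability was set against genes of like abundance as the ratio of a gene's squared coefficient of variation to the fitted trend over all genes (modelGeneCV2 of scran). The core had a median ratio of 0.776, and the 48 proteasome genes that passed the filter 0.888, against 1.41 over all 10868 genes. Over the 1516 genes at least as abundant as the lowest core gene the median was 1.22. The 20S genes stood at 0.479 and the 19S genes at 0.953. Ribosomal protein genes (0.288) and nuclear oxidative phosphorylation genes (0.487) were lower than the core, the chaperonin CCT at 0.653 and the translation factor eIF3 at 0.723 were near it, and the COP9 signalosome, a relative of the lid, was at 1.05. Lowest were Psmb1 (0.301), Psma3 (0.319), Psma2 (0.362), Psma5 (0.389) and Psmb7 (0.399), all ring genes.

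A ratio of at least 2 was reached by 3 proteasome genes and none of the 31 core genes, against 26% of all genes that passed the filter. Of the 1516 genes at least as abundant as the lowest core gene, 300 reached it. The 3 were Psmb8 (4.05), Psme2 (3.04) and Psmb10 (2.87), which belong to the immunoproteasome or, for Psme2, to the PA28 activator that docks on it. Next were Psmd3 at 1.98 and Psmd10, a base chaperone also known as gankyrin, at 1.90. The Psmd10 value rests on cell A02 (390 CPM against a median of 29.8) and was 1.25 without it. The count is sensitive at its border. It was 6 in the cells of wells in rows A to D alone and 6 when the 10 counts were asked of 30 cells. With a filter of 1 count in 3 cells it was 7. The share of all genes at that ratio is not given for these settings, so whether all genes moved alike cannot be read from them.

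**Figure D2:**
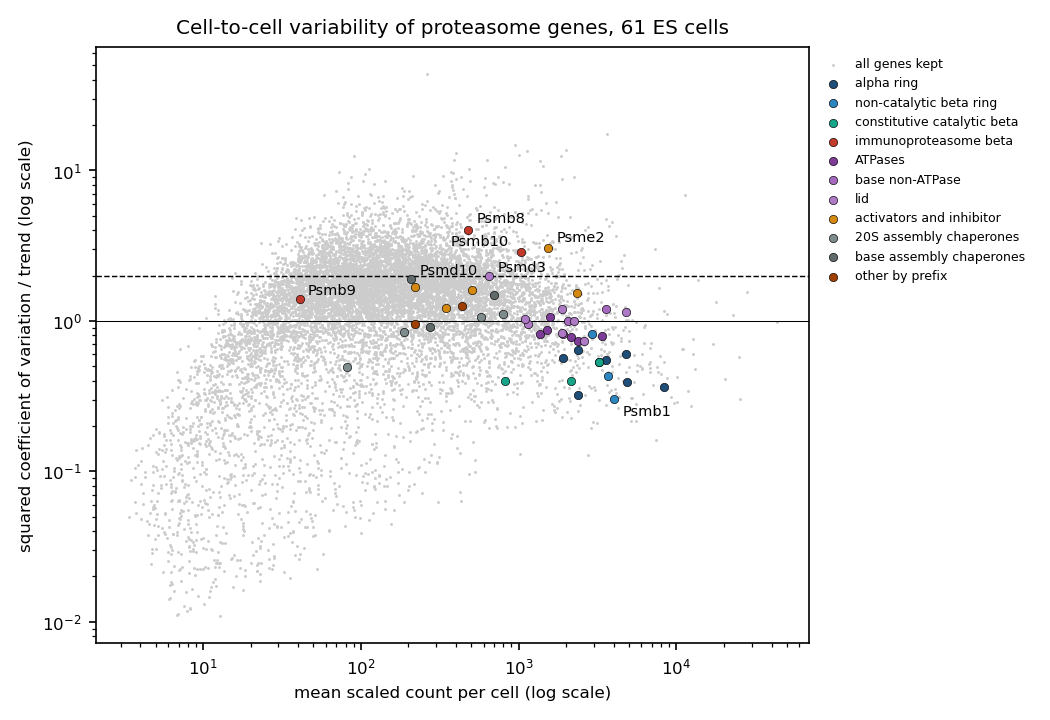
Squared coefficient of variation divided by its trend, against the mean scaled count, for all 10868 genes (grey) and 48 proteasome genes (coloured by role), both axes logarithmic; the dashed line marks a ratio of 2 and the solid line 1. Ring genes lie below the trend, and Psmb8, Psme2 and Psmb10 lie above the dashed line.

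Immunoproteasome genes varied from not detected to abundant between cells. Psmb8, the counterpart of Psmb5 (chr17:34197721-34201454), was found in 37 cells and ran from 0 through 23.9 to 646 CPM, highest in A04. Psmb10, the counterpart of Psmb7 (chr8:105935735-105938444), was found in 56 cells and ran from 0 through 161 to 1022 CPM, highest in D07. Psmb9, the counterpart of Psmb6 (chr17:34181987-34187764), was found in 17 cells with a highest value of 125 CPM in D04. The 3 genes were thus not detected to a like extent, and 24 cells held no Psmb8 count.

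Their share of the 6 catalytic genes, per exon length, ran from 0% in A02 through 12% to 59.5% in G05. The 90th percentile over cells was 40.1%. Psmb10 had the highest share of its own pair: it made up 0% to 91.8% (median 41.9%) of Psmb10 plus Psmb7, whereas Psmb8 made up 0% to 44.6% (median 3.17%) of Psmb8 plus Psmb5 and Psmb9 at most 7.26% of Psmb9 plus Psmb6. With transcript lengths the Psmb10 median was 24.1%, that of Psmb8 5.44%, and the overall share had a median of 8.05% and a maximum of 48.8%. The order of the 3 pairs was the same by either length.

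The PA28 activator genes Psme1 and Psme2 encode the alternating subunits of a ring that opens the 20S gate. Psme1 (chr14:55578123-55581529) was found in 58 cells and ran from 0 through 94.7 to 551 CPM. Psme2 (chr14:55587441-55591113) was found in 57 cells and ran from 0 through 303 to 1719 CPM, highest in D04. Psme2b was found in the same 57 cells as Psme2, with a rho of 0.989 between them. As a near copy it may share reads with Psme2, so its values are uncertain.

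These genes varied together from cell to cell. Co-variation is given as Spearman rho over the 61 cells, on log2(CPM + 1) after regression on the number of genes detected; as the cells stand for 1 sample, rho has no p-value here. Psmb8 and Psmb10 had a rho of 0.664, Psme1 and Psme2 0.683, Psmb8 and Psme2 0.743, and Psmb10 and Psme2 0.732. Psmb8 lies on chromosome 17, Psmb10 on 8 and the Psme pair on 14, so these are not pairs of neighbours apart from Psme1 and Psme2. Psmb9 stood apart, with 0.0755 to Psmb8 and 0.176 to Psmb10. The exchange partners were hardly related: 0.184 for Psmb5 and Psmb8, 0.0856 for Psmb6 and Psmb9, and -0.0131 for Psmb7 and Psmb10.

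A list of 12 other genes of interferon response and antigen processing, among them Irf1, Gbp2, Tap1, Tapbp, B2m and H2-K1, was scored as the mean z-score per cell. The Spearman rho with this score was 0.769 for Psme2, 0.747 for Psmb8, 0.679 for Psme1, 0.646 for Psmb10 and 0.202 for Psmb9. The median was -0.00756 over the core and -0.00481 over 10820 genes outside the list of 50. Psmb5, Psmb6 and Psmb7 stood at 0.105, -0.0983 and -0.0300. Among core genes the highest was Psmb4 at 0.401 and the lowest Psmd4 at -0.399.

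Within narrower ranges of the score the relation was weaker. The largest gap of the score with at least 6 cells on each side, from -0.0779 to 0.112, left 33 cells below and 28 above. Within these sets rho was 0.0943 and 0.486 for Psmb8, -0.0882 and 0.383 for Psmb10, 0.293 and 0.215 for Psme2, and 0.338 and -0.0104 for Psme1. For Psmb9 it was 0.260 and 0.152. For all but Psmb9 both values were thus lower than over all cells. Of the 6 immune markers, Ptprc and H2-Aa were at 0 on both sides. The others, Cd74 (11 cells), Laptm5 (7), H2-Ab1 (3) and Cd52 (2), were not split by side. Over all cells the median of Psmb8, Psmb9, Psmb10, Psme1 and Psme2 was 0.679. In well rows A to D (33 cells) it was 0.768 and in rows E to H (28 cells) 0.731, both without Psmb9. Psmb9 did not reach 10 counts in 10 cells within either set of rows. As Psmb9 was the lowest of these genes over all cells, the medians by rows are not like for like with 0.679.

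**Figure D3:**
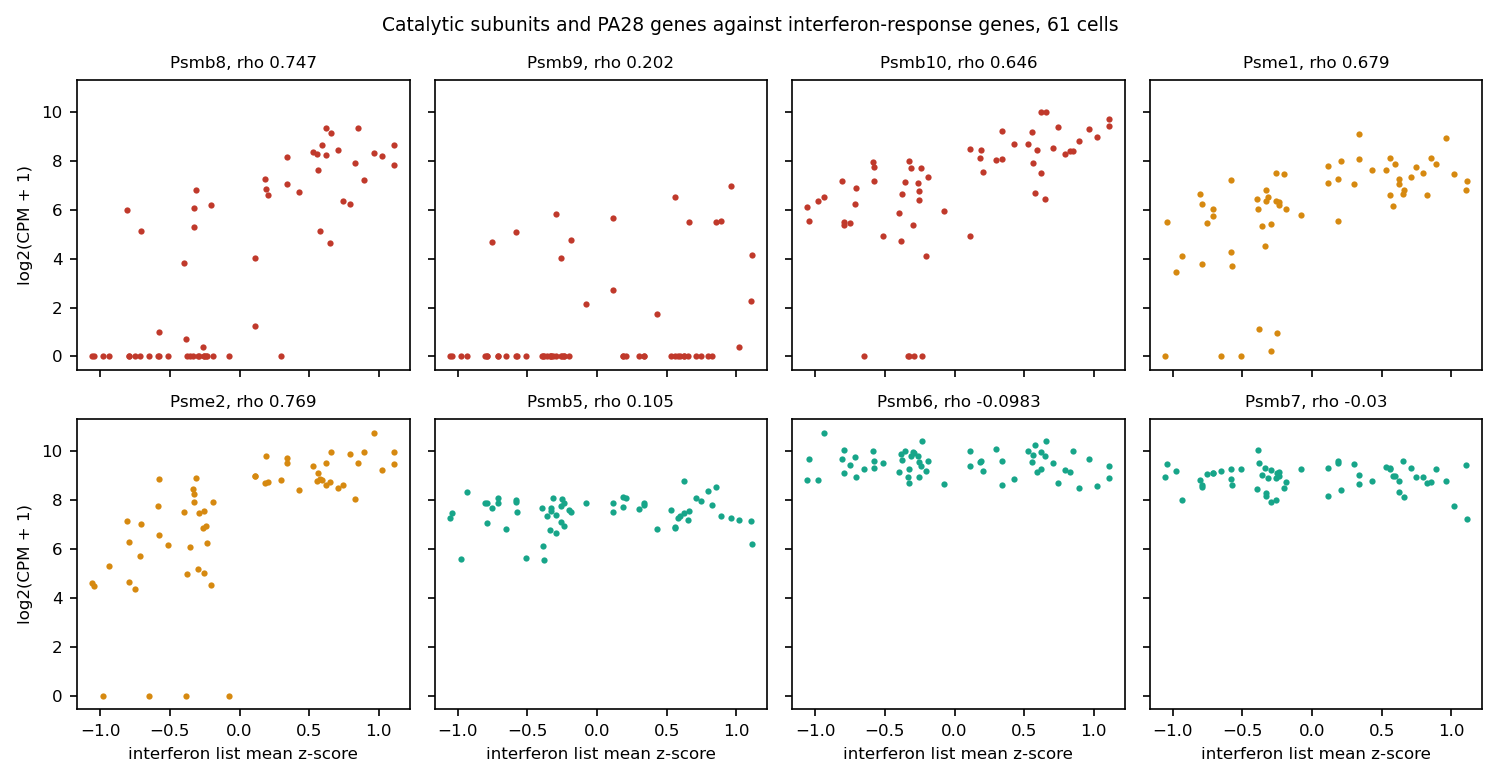
Level of 8 proteasome genes as log2(CPM + 1) against the mean z-score of 12 interferon and antigen-processing genes, 1 point per cell, with Spearman rho over 61 cells. Psmb8, Psmb10, Psme1 and Psme2 are high in cells of high score, while Psmb5, Psmb6 and Psmb7 are level across it.

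Overlapping genes limit some of these values, since no source used here says whether the counting took strand into account. Psmb9 and Tap1, which encodes a peptide transporter, lie on opposite strands and share 212 exon bases. Their rho was 0.712, and 13 of the 17 cells with Psmb9 also had Tap1. Psmb8 shares 498 exon bases with the antisense gene Gm20496, with a rho of 0.977. Psmb8 and Tap2 had a rho of 0.432.

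The same genes had negative rho with a naive pluripotency score, the mean z-score of 14 naive-state genes such as Zfp42, Esrrb and Tfcp2l1. This score parts the cells at a gap from 0.740 to 1.04, and rho is given within the 53 cells below it. Psme2 stood at -0.605, Psmb8 at -0.433, Psme1 at -0.420, Psmb10 at -0.388 and Psmb9 at -0.223. The core median was -0.0218, from -0.261 (Psmb4) to 0.290 (Psmc4), and the median over 10820 other genes -0.0437. Of the 3 base chaperones, Psmd5 (0.376) and Psmd9 (0.295) had the opposite sign and Psmd10 stood at -0.0211. The 8 cells above the gap are too few for a reading.

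The core genes themselves co-varied weakly. The mean rho over their 465 pairs was 0.0476, against 0.0110 over all gene pairs and 0.0156 over pairs of genes at least as abundant as the lowest core gene. The 20S genes had a mean of 0.110 (91 pairs) and the 19S genes 0.0200 (136 pairs), with 0.0396 between the particles. By subcomplex it was 0.167 in the alpha ring, 0.126 in the constitutive beta ring, 0.0176 among ATPases and 0.0212 in the lid. Ring genes were thus the part of the particle with the higher values, and the cap lay near the value of all genes. The 20S genes were also more abundant, with a median mean scaled count of 3240 against 1913 for the 19S genes. Whether level accounts for the difference in rho was not tested.

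Other complexes give the scale. Ribosomal protein genes had a mean of 0.325, the chaperonin CCT 0.133, eIF3 0.0466, nuclear oxidative phosphorylation 0.0462 and the COP9 signalosome 0.0313. The proteasome core as a whole lay beside eIF3 and oxidative phosphorylation, and the 20S genes beside CCT. The core mean was 0.0796 in well rows A to D and 0.0168 in rows E to H, and 0.0250 with DESeq2 size factors. The mean over all gene pairs is not given for these settings, so the distance of the core from it cannot be read there.

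**Figure D4:**
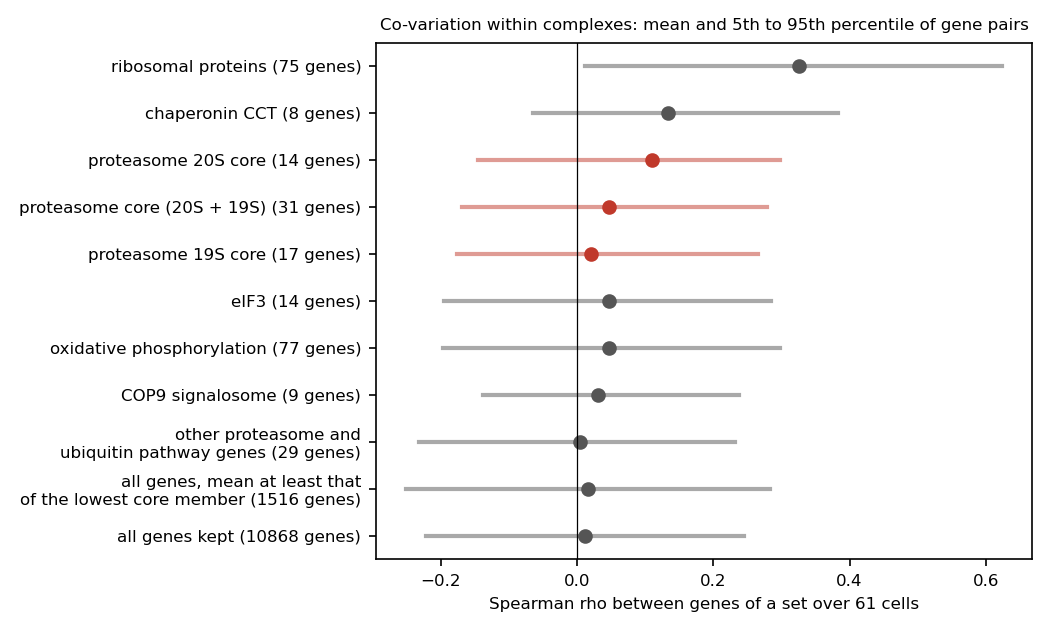
Mean (point) and 5th to 95th percentile (bar) of Spearman rho over gene pairs within each set, over 61 cells, with the number of genes in brackets; proteasome sets are red. The 20S genes lie near the chaperonin CCT, the 19S genes near all genes, and ribosomal protein genes far above.

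Each core gene was also compared with the mean z-score of the other core genes. A rho of at least 0.3 was reached by 7 of 31, against 1.81% of the 10820 genes outside the list and 4.53% of those 1480 that were at least as abundant as the lowest core gene. The highest were Psmb6 (0.490), Psma5 (0.477), Psma2 (0.428), Psmb2 (0.369) and Psma3 (0.340), all of the 20S rings, and the other 2 were Psmc5 (0.307) and Psmd7 (0.304). The lowest were the lid genes Psmd11 (-0.127), Psmd12 (-0.0955) and Psmd3 (-0.00830), the ATPase Psmc2 (-0.0171) and the scaffold Psmd2 (-0.00370). This count moved with the processing: it was 2 with DESeq2 size factors, with 1.01% of the other genes, and 10 without TMM, with 2.62%. It was 14 of 31 in well rows A to D, with 7.02% of the other genes, and 3 of 31 in rows E to H, with 8.41%, where the core was close to the other genes.

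Single pairs were modest. The highest core pair was Psmd6 and Psmd14, both of the lid, at 0.425, followed by Psmb6 and Psmd7 at 0.415 and Psma2 and Psma3 at 0.392. The lowest was Psmd14 and Psmb3 at -0.362. Over all core pairs 62.2% were above 0.

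**Figure D5:**
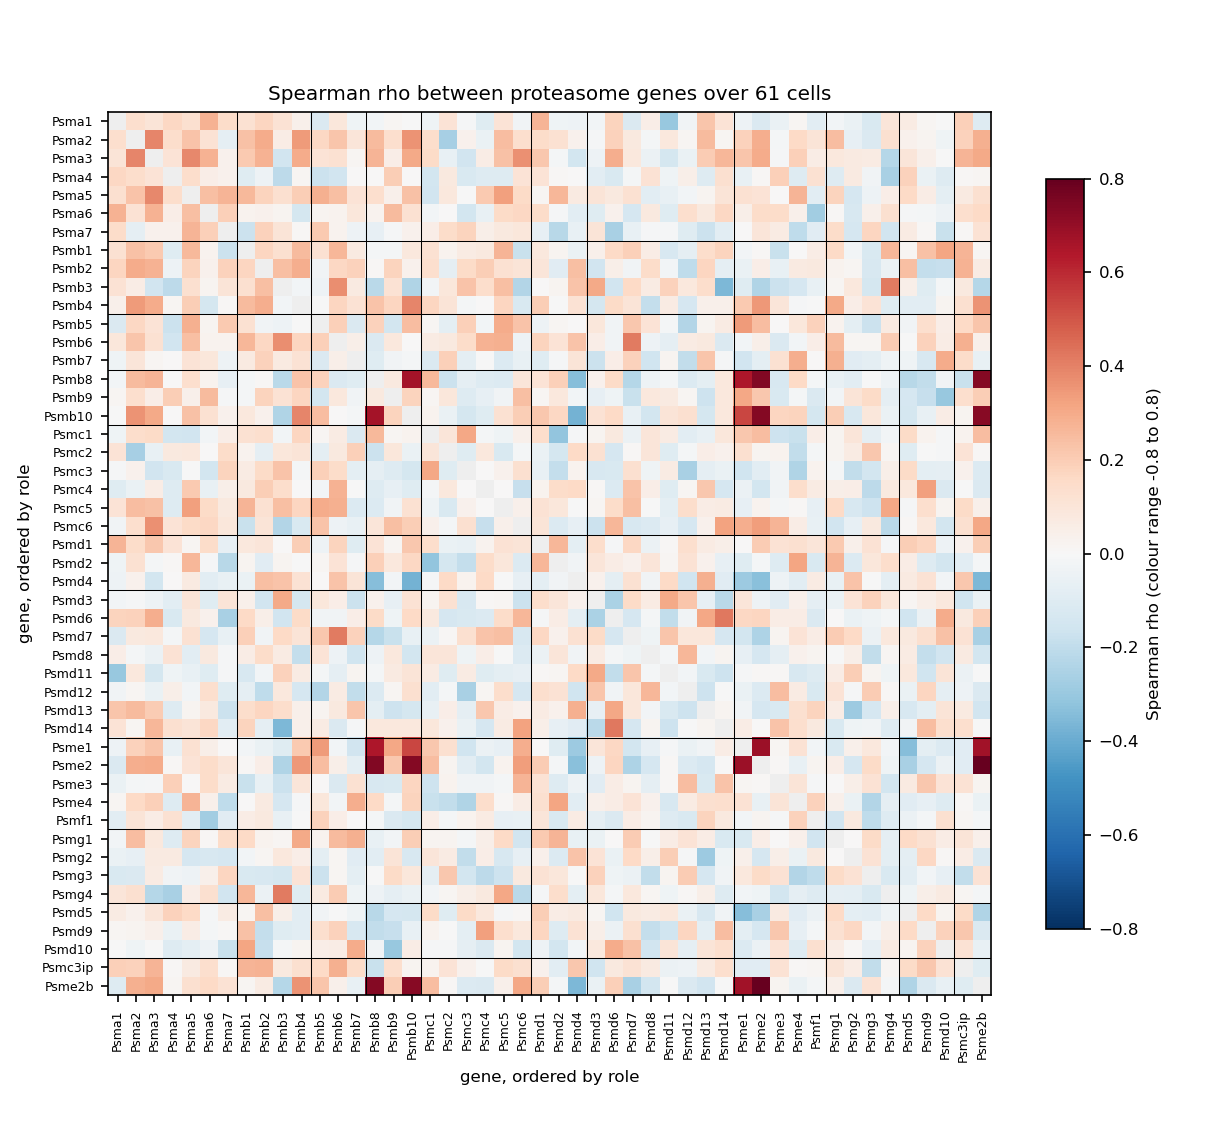
Spearman rho between the 48 proteasome genes that passed the filter, over 61 cells, ordered by role with black lines between roles; red is positive and blue negative. The darkest blocks join Psmb8, Psmb10, Psme1, Psme2 and Psme2b, and the rings at the upper left are pale red.

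Outside the list, the genes most like the core by rho with its mean z-score were Naa10, the catalytic subunit of an N-terminal acetyltransferase (0.553), Gm8394 (0.552), Nhp2, of the small nucleolar ribonucleoproteins (0.509), Fau, a ubiquitin-like fusion to a ribosomal protein (0.505), and Kars, the lysyl-tRNA synthetase (0.495). Then came Gm26920, Gm7666, Rpf2, Gm12989 and Snu13, at 0.488 down to 0.445. Gm8394, Gm7666 and Gm12989 are pseudogenes by annotation, whose counts may include reads of their parent genes.

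Of 29 other proteasome and ubiquitin pathway genes, 4 had a rho of at least 0.3 with the core, beside the 1.81% of all genes outside the list and 4.53% of the abundant ones given above: Adrm1, a ubiquitin receptor of the 19S cap (0.389), the polyubiquitin gene Ubb (0.354), the ubiquitin fusion gene Rps27a (0.310) and the segregase Vcp (0.310). The 20S chaperone Pomp and the cap subunit Sem1, whose symbols fall outside the rule, were found in all 61 cells, at medians of 425 and 228 CPM. The list's mean pair rho was 0.00372 and its median variability ratio 1.07. Nfe2l1, the factor known for raising proteasome genes when activity falls, was found in 58 cells (median 38.1 CPM) and had a rho of -0.148 with the core.

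The core showed little relation to the cell's RNA make-up or cycle. Median rho over the 31 genes was -0.0487 with the mitochondrial share, -0.0174 with a G2/M score, 0.0535 with a G1/S score and 0.0286 with total counts. The same medians over the 1480 other genes at least as abundant as the lowest core gene were -0.0299, 0.0322, 0.0396 and 0.0436. Single genes went further, with Psmb6 at -0.424 and Psmb1 at -0.341 against the mitochondrial share and Psmb5 at -0.391 against G2/M.

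On chromosome 14 lie 5 of the 48 genes: Psmb5, Psmc6, Psmd6, Psme1 and Psme2. Their rho with the summed level of the chromosome's other genes had a median of 0.416, from 0.143 (Psmb5) to 0.444 (Psmc6). The median was -0.0392 for the 43 proteasome genes elsewhere, 0.108 for 375 other genes of the chromosome and 0.0203 for genes on other chromosomes. The sum leaves out proteasome genes only, so each of the 375 genes is itself part of it, unlike the 5. The share of counts from chromosome 14 ran from 1.22% in E01 through 2.89% to 3.54% in C10. Psmb8 on chromosome 17, which moves with Psme2, reached a similar height at 0.409. Position and the interferon-linked group thus cannot be told apart for Psme1 and Psme2. Psme2b (chromosome 11) stood at 0.416, but it may share reads with Psme2, so its value is not a separate one. Cells of high naive score tended to have a smaller share: of the 8 cells above the gap of that score, 5 were among the 8 cells with the smallest share. The 8 cells above the gap had a median share of 2.43%, against 2.91% in the 53 cells below it. Within those 53 cells rho was 0.408 for Psmc6, 0.342 for Psme2, 0.285 for Psmd6, 0.272 for Psme1 and -0.00202 for Psmb5, with a median of 0.285, while Psmb8 stood at 0.346 and Psme2b at 0.326. In E01, Psme1 stood at 64.1 CPM, Psme2 at 0, Psmb5 at 68.2, Psmd6 at 359 and Psmc6 at 536 CPM.

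Part of that relation rested on a few cells. Without the 3 cells with the fewest genes detected and the 3 with the highest mitochondrial share (B05, B10, F01, F05, F07 and H10), the median for the 5 genes was 0.250, and without the regression on genes detected it was 0.262. B05, F01, F07 and H10 were among the 6 cells with the smallest chromosome 14 share.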

How the data were processed

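Per the labels, RNA of single cells was separated from DNA by G&T-seq and made into Nextera XT libraries. Whole-number counts of reads for each gene, as deposited by the authors, were the basis of all values. The submitters' processing notes name GSNAP 2014-02-28, SAMtools 0.1.18, bedtools 2.19.1, DESeq2 and the build GRCm38, but no source used here gives the counting rule or the use of strand. The 95 spike-in rows and the deposited normalized table were not used.

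Symbols, exon lengths and coordinates came from GENCODE M21. Counts were scaled by TMM (edgeR 4.0.16), variability ratios came from scran 1.30.0, and rho was computed on residuals of log2(CPM + 1), for genes that reached 10 counts in 10 cells. The procedures were checked on simulated counts. Named genes were chosen by role and by rank within each measure.

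The members and lists were chosen with earlier results of these data known. Transcript length, the background of abundant genes, the pairs among Psmb8, Psmb9, Psmb10, Psme2, Psme2b and Gm20496, the gap of the interferon score and the motifs were chosen after the data were seen. Reads without molecular identifiers are not independent molecules.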

Additional observations from a re-analysis of the deposited data

How the results depend on the processing

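Over the alternatives, the summed level had a median of 21367.5 to 22695 CPM, the median variability ratio of the proteasome genes ran from 0.717 to 0.945, the immunoproteasome share from 8.05% to 15.7% and the mean pair rho of the core from 0.0168 to 0.0796. The last 2 moved widely for their size. For the mean pair rho, the value over all gene pairs is not given in the alternatives. The number of proteasome genes with a variability ratio of at least 2 was 3. It was 7 without the filter beyond 1 count in 3 cells, 6 with 10 counts in at least 30 cells and 6 in well rows A to D. For these 3 settings the share of all genes at that ratio is not given. The number of core genes with a rho of at least 0.3 with the others was 7, beside 1.81% of the genes outside the list. It was 2 with DESeq2 size factors (1.01% of the other genes), 14 in rows A to D (7.02%) and 3 in rows E to H (8.41%). The chromosome 14 median was 0.416, and it was 0.262 without regression on genes detected and 0.250 without the 6 cells with few genes or a high mitochondrial share. In the cells below the naive gap, an alternative chosen after seeing the data, it was 0.285. The cause was not tested. The median of 5 interferon-inducible genes with the interferon list, alternatives to which were chosen after seeing the data, ran from 0.611 to 0.768. The upper end is from well rows A to D. In rows A to D and in rows E to H Psmb9 missed the filter and was left out of the median. Medians of the core with the naive, G2/M and G1/S scores changed sign among alternatives and lay within -0.0559 and 0.0727.

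No paired analysis was possible because the cells are of 1 condition and stand for 1 sample. Sets of cells, such as the sides of a score gap or the well rows, were described side by side without a test. The 61 cells were not left out one by one. With each gene's own highest cell left out, the median variability ratio of the proteasome genes was 0.776 and 3 ratios were at least 2. Depth limits genes near 0 counts, such as Psmb9, Psmb11 and Psma8, in which absence from a cell cannot be told from a missed transcript.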
